A study of Oryza sativa with 4 samples.

Results

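Probes for the cytoskeleton and for vesicle traffic were followed in leaves of rice seedlings given nitrate or water, in light and in dark. The members were the array probes whose description names tubulin, actin, profilin, kinesin, myosin, dynamin, a microtubule protein, a syntaxin or SNARE, a small or GTP-binding GTPase, Rab, ADP-ribosylation factor, clathrin, coatomer or annexin, with elongation factors left out. There were 224 such probes among the 21495 non-control probes of the array. A description is the name of a similar sequence, often of another species, so that a probe called Picea rubens actin is a rice cDNA that resembles that actin. Each probe stands for 1 GenBank cDNA, and the 224 probes carried 224 different cDNA accessions but only 157 different descriptions.

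All plants were Oryza sativa indica var. Panvel, 8 to 10 days old, raised on distilled water without nutrients, at 25 °C by the labels. One set grew in a day and night cycle (light-grown, called light) and the other without light (etiolated, called dark). Leaves of each set received 120 mM nitrate for 2 h by the labels or water alone, and the study's methods give a shorter treatment and a warmer growth chamber. RNA of nitrate-treated and water-treated leaves was hybridised together on a 2-colour array, with 2 biological replicates per light regime and the dyes exchanged between them, which gives 4 arrays. Whole-leaf RNA was used, so fewer cells of a type and less RNA per cell cannot be told apart.

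Microtubules are hollow polymers of alpha and beta tubulin, along which kinesins carry cargo and which, in dividing plant cells, build the spindle and the phragmoplast that lays down the new wall. Actin filaments are the tracks of plant myosins, drive cytoplasmic streaming and hold chloroplasts in place. Membrane traffic uses coats to bud vesicles (COPII, started by the GTPase SAR1, COPI or coatomer, started by ADP-ribosylation factor, and clathrin with its adaptors), dynamins to pinch membranes, Rab GTPases to direct vesicles, and SNAREs such as syntaxins to fuse them. In a seedling kept in darkness, organs elongate while chloroplast development is held back until light arrives.

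The treatment and the light regime were visible on the arrays. The probe of a nitrate reductase with the largest ratio (A_71_P104314) had log2(nitrate/water) of 6.44 and 6.32 in light and 3.29 and 3.72 in dark. Of 4 nitrate reductase probes, 3 had a mean ratio above 0 in light and 4 in dark. The exception in light, A_71_P128019, had -0.45 and -0.41 there and 0.24 and 0.01 in dark. Of 2 nitrite reductase probes, A_71_P102212 had 5.07 and 5.08 in light and 4.05 and 3.05 in dark. The other, A_71_P122972, had -0.36 and -0.08 in light and 0.0003 and 0.27 in dark. In water-treated leaves, 12 of 16 probes for chlorophyll a/b binding proteins were lower in etiolated than in light-grown leaves and 1 was higher. Of 19 photosystem probes, 11 were lower and 1 was higher. None of 3 probes for the Rubisco small subunit was called, with a median difference of -0.68. Of 15 probes described as root cap, root-specific or nicotianamine synthase, 1 was higher and 4 were lower. The scanner software tests each spot against background, and 75.5% to 79.0% of spots passed per channel. Of the 224 members, 189 passed in 1 or both channels of every array, and of all 21495 probes, 16008 did. Precision is limited by the number of arrays. Over all probes, the nitrate ratios of the 2 replicates correlated at 0.449 in light and 0.462 in dark. Between arrays of different regimes the correlation ran from -0.008 to 0.317, highest for light 2 and dark 2, which share the dye order. All 4 arrays lay on 1 slide, so no split by slide or scan could be made.

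The light regime, in water-treated leaves, set many of these probes apart. The log2 signal of each channel, after loess and Aquantile normalization, was compared between etiolated and light-grown leaves by limma's separate-channel fit, and a probe was called where the difference was at least 1 on the log2 scale with an adjusted p of at most 0.05. Of the 224 members, 56 were higher in etiolated leaves, where 14.2% of all probes were called higher, and 12 were lower, where 13.9% were called lower. The members' calls were thus 25.0% higher and 5.36% lower. The median difference of the members was 0.40 and that of all probes 0.01. At an adjusted p of at most 0.05 and any size of difference, 116 members passed, against 45.2% of all probes. Members of the cytoskeleton (tubulin, microtubule, kinesin, actin, profilin and myosin) gave 38 higher and 4 lower of 106, with a median of 0.56. The traffic and GTPase members gave 18 higher and 8 lower of 118, with a median of 0.26. Each array carries only 1 light regime, so this comparison sets 2 arrays against 2.

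**Figure D1:**
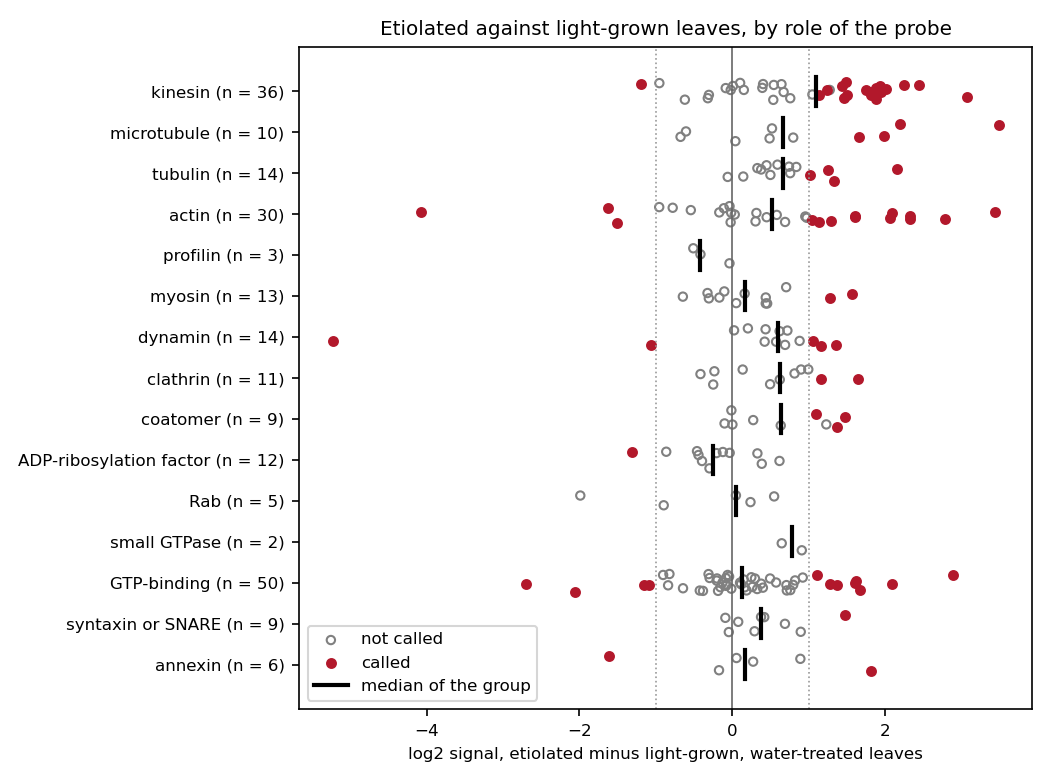
Difference in log2 signal between etiolated and light-grown water-treated leaves for each of the 224 probes, by role group, with filled points for called probes, open points for the others, bars for group medians and dotted lines at a difference of 1. The kinesin median lies at 1.09, and the ADP-ribosylation factor and profilin medians lie below 0, at -0.25 and -0.42. Fitted values are plotted also where a signal was not above background.

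Kinesins, the motors that walk on microtubules, held the largest number of calls. Of 36 kinesin probes, 17 were higher in etiolated leaves (47.2%, beside 14.2% of all probes) and 1 was lower (2.78%, beside 13.9%). A difference above 0 was seen in 29. The probe for a kinesin-like protein of Arabidopsis (At5g02370, A_71_P114182) had log2 signals of 5.47 and 5.82 in the light-grown and 8.70 and 8.73 in the etiolated water samples. Both etiolated values lay above both light-grown ones, by 3.07 on the log2 scale (SE 0.16, 8.38-fold, limma adjusted p = 5.6e-05). In this comparison of 2 arrays with 2, the groups did not overlap, in either direction, in 73.3% of all probes. With normexp background correction, an alternative that adds an offset to every signal, the difference was 1.502. The other probe of that description rose by 1.95 (adjusted p = 5.7e-04). The maize kinesin heavy chain KIN8 (A_71_P121161) read 8.15 and 8.24 against 10.58 and 10.70, a difference of 2.44 (SE 0.12, adjusted p = 5.4e-05). KIN16 (A_71_P103355) read 7.85 in both light-grown samples against 10.04 and 10.16, a difference of 2.25 (SE 0.18, adjusted p = 2.5e-04), whereas a second KIN16 probe differed by 0.54 and was not called.

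The remaining called kinesins were spread over several kinds of motor. They included PAKRP2, a kinesin of the Arabidopsis phragmoplast (1.93), KatA, a motor of the Arabidopsis spindle (1.88), MKRP1 (1.80), KP1 (1.81) and 3 of the 4 KATD probes (1.44, 1.49 and 1.88). All of these were higher in etiolated leaves. The lone lower kinesin was KIN15 (A_71_P120666), at 13.45 and 12.99 in light-grown and 12.04 and 12.02 in etiolated leaves, a difference of -1.19 (SE 0.17, adjusted p = 0.0020), which was no longer called without light replicate 1. As several of these motors act in dividing cells, a list of cyclins and histones, added after the values were seen, was read beside them. Of its 38 probes, 9 were higher (23.7%, beside 14.2% of all probes) and 8 lower (21.1%, beside 13.9%). The median of the list was 0.25, and that of all probes 0.01. The part of cell division in the kinesin calls was not tested.

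Among proteins that bundle microtubules and among tubulins, every call was higher in etiolated leaves. MAP65-1a, which crosslinks neighbouring microtubules, is the description of 8 probes, of which 3 were higher and none lower. That is 37.5% and 0.0%, beside 14.2% and 13.9% of all probes. The probe with the largest difference, A_71_P117580, read 7.05 and 6.89 in light-grown and 10.33 and 10.58 in etiolated leaves, a difference of 3.49 (SE 0.39, 11.2-fold, adjusted p = 8.3e-04), or 2.52 with normexp. A_71_P104203 read 7.92 and 7.60 against 9.87 and 10.03, a difference of 2.19 (SE 0.16, adjusted p = 1.9e-04), and the remaining called probe differed by 1.99. The groups did not overlap in any of the 3 called probes, as in 73.3% of all probes in this comparison of 2 arrays with 2. The other 5 MAP65-1a probes, 2 of them below background in both groups, lay between -0.68 and 0.80, and a probe for a microtubule-associated motor (At5g60930) was higher by 1.66.

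All 14 tubulin probes were well above background, 13 had a difference above 0, and 4 were called higher. That is 28.6% higher and 0.0% lower, beside 14.2% and 13.9% of all probes. The called probes were tubulin folding cofactor B, which helps to fold alpha tubulin, and 3 rice beta tubulins. Cofactor B (A_71_P111862) read 7.49 and 7.88 in light-grown and 9.89 and 9.78 in etiolated leaves, a difference of 2.15 (SE 0.26, adjusted p = 0.0011), or 1.55 with normexp. The beta tubulins OSTB-16, OSTB-34 and a further rice beta tubulin differed by 1.33, 1.25 and 1.02. The alpha tubulins lay at 0.14 to 0.84, with none called. The gamma tubulin TubG2, which seeds microtubules, differed by 0.45.

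Actin and its regulators were called in both directions, 11 higher and 3 lower of 30. That is 36.7% and 10.0%, beside 14.2% and 13.9% of all probes. Of 11 probes described as actin itself, 5 were higher and 1 was lower (45.5% and 9.09%). The Picea rubens actin probe (A_71_P125607) read 7.99 and 8.60 in light-grown and 10.62 and 10.64 in etiolated leaves, a difference of 2.33 (SE 0.23, adjusted p = 5.3e-04). All 3 Hordeum vulgare actin probes were higher, by 1.13, 1.30 and 2.06. Of the 4 Setaria italica actin probes, 1 was higher by 1.61, 2 were not called (0.45 and 0.96), and A_71_P114861 was lower, at 7.15 and 7.29 in light-grown and 5.85 and 5.34 in etiolated leaves (-1.63, SE 0.20, adjusted p = 0.0012). Its water signal was well above background on 1 of the 2 etiolated arrays. The probes for rice actin RAc1 differed by -0.78 and 0.32 and were not called. Actin genes are widely used as internal references in qRT-PCR.

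Among the actin-binding proteins, those that take filaments apart gave 2 calls. Actin depolymerizing factor severs filaments, and of its 7 probes 2 were higher and none lower. That is 28.6% and 0.0%, beside 14.2% and 13.9% of all probes, and the median of the 7 was 0.03. The Elaeis guineensis probe (A_71_P123524) read 5.85 and 6.25 in light-grown and 8.73 and 8.93 in etiolated leaves, a difference of 2.78 (SE 0.17, adjusted p = 8.8e-05) or 1.67 with normexp, and the Petunia ADF1 probe differed by 1.61. The other 5 lay between -0.11 and 0.97. The actin-like protein At1g13180, the ARP3 subunit of the complex that starts branched filaments, was higher by 2.08 (A_71_P104505, adjusted p = 7.6e-04). ARP8, an actin-related protein of the Arabidopsis nucleus (A_71_P128532), read 13.35 and 13.22 in light-grown and 11.76 and 11.81 in etiolated leaves and was lower, by a difference of -1.50 (SE 0.10, adjusted p = 1.4e-04).

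CHUP1, the protein that ties chloroplasts to actin at the plasma membrane in Arabidopsis, is the description of 2 probes that moved in opposite directions. A_71_P126729 read 10.95 and 11.12 in light-grown and 6.95 and 6.96 in etiolated leaves, a difference of -4.07 (SE 0.12, 16.8-fold, adjusted p = 2.3e-05), or -3.23 with normexp. A_71_P120376 failed the background test on both light-grown arrays and read 6.77 and 7.08 in the etiolated water samples. It was at least 7.28-fold higher in etiolated leaves, a bound set by the lowest signal among probes well above background on each light-grown array (adjusted p = 5.3e-04). With normexp background correction the difference was 0.999 on the log2 scale, a smaller increase than that bound, and the probe was not called. Another pair of members in the actin group, described as SWI/SNF regulators of chromatin and so not part of the cytoskeleton by name, were called higher, 1 of them by 1.04 and the other at least 2.63-fold from light-grown signals below background.

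The motors on actin gave 2 calls. Of 13 myosin probes, 2 were higher and none lower (15.4% and 0.0%, beside 14.2% and 13.9% of all probes). The 2 were a maize unconventional myosin, MYO1 (1.27), and a sunflower unconventional myosin, hamy5 (1.56). Several myosin probes carry the names of animal muscle myosins, among them A_71_P102072, a quail slow myosin by description, which differed by -0.17. None of the 3 probes for profilin, a protein that binds actin monomers, was called. The barley profilin probe differed by -0.51, and both rice profilin A probes were not well above background in either water group.

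**Figure D2:**
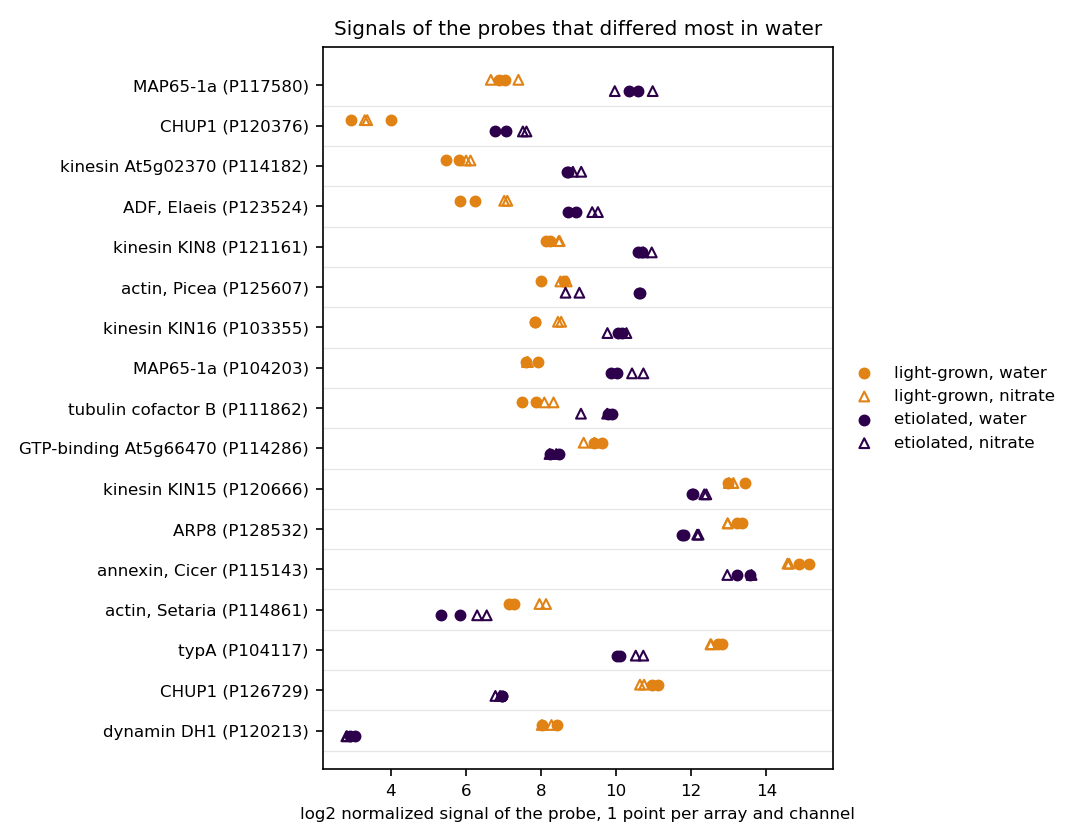
Log2 normalized signal of the named probes that differed most between etiolated and light-grown water-treated leaves, with 1 point per array and channel, orange for light-grown and purple for etiolated leaves, filled circles for water and open triangles for nitrate. In most probes the nitrate-treated signals lie beside the water-treated ones of the same light regime, and the Picea actin probe is an exception, where nitrate-treated etiolated leaves read 8.66 and 9.02. Levels of different probes are not comparable.

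Dynamins, the GTPases that constrict membranes, gave 3 higher and 2 lower of 14 (21.4% and 14.3%, beside 14.2% and 13.9% of all probes). The Astragalus sinicus dynamin homolog DH1 is the description of 3 probes. A_71_P120213 read 8.42 and 8.03 in light-grown leaves, and it failed the background test on both etiolated arrays, so that it was at least 17.5-fold lower there (adjusted p = 2.4e-05). With normexp background correction the difference was -1.49 on the log2 scale, a smaller decrease than that bound. The other DH1 probes differed by 0.69 (not called) and 1.06 (called higher). ADL2, a dynamin-like protein of Arabidopsis, was higher by 1.36, and Dap160, a dynamin-associated protein of Drosophila, by 1.16. The other lower dynamin, phragmoplastin, which acts at the growing cell plate, was not well above background in either water group, so no fold is given.

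Coat proteins gave calls in 1 direction. Of 11 probes whose description holds clathrin, 2 were higher (18.2%) and none lower. Of 9 coatomer probes, 3 were higher (33.3%) and none lower. Of all probes, 14.2% were called higher and 13.9% lower. The clathrin calls were the adaptor subunit MU1B of the trans-Golgi complex AP-1 (1.65 in 1 probe, 0.99 and not called in the other) and a clathrin coat assembly protein, the medium chain of the AP-4 adaptor (At4g24550, 1.17 in A_71_P118681 and 0.50 in the other probe). Clathrin heavy chain itself differed by 0.62 and was not called. A pair of clathrin-group probes are zeta2-COP, described as nonclathrin, which belongs to COPI, and neither was called. The called coatomer subunits were an alpha (1.48), a beta prime (A_71_P115783, 10.25 in both light-grown samples against 11.30 and 11.39, 1.10, SE 0.20, adjusted p = 0.0064) and At3g15980 (1.37).

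The GTPases that steer these coats and vesicles were split by type. Of 12 ADP-ribosylation factor probes, none was higher and 1 was lower (8.33%, beside 13.9% of all probes). Neither group was well above background in that probe. Of 5 SAR1 probes, which share 1 description, 1 was higher by 1.28 (20.0%, beside 14.2% of all probes) and 4 lay between -0.13 and 0.33. Of 20 GTP-binding probes with a Rab-type name, 6 were higher and none lower: pea pra5 (2.10), RAB1X (1.68), rice rab5A (1.62), both probes of At5g60860 (1.11 and 1.60) and RAB11C (1.38). The 5 probes of the group whose description holds Rab as a word, among them a Rab escort protein and a Rab GDP dissociation inhibitor, gave no call.

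Outside these families, a GTPase of translation in chloroplasts had the largest decrease among the GTP-binding probes. TypA (A_71_P104117) read 12.83 and 12.73 in light-grown and 10.04 and 10.12 in etiolated leaves, a difference of -2.70 (SE 0.12, adjusted p = 3.7e-05), whereas the second typA probe differed by -0.01. A GTP-binding protein-like probe (At5g66470, A_71_P114286) was lower, with 9.41 and 9.62 against 8.25 and 8.48 (-1.15, SE 0.16, adjusted p = 0.0021). A further lower GTP-binding probe was not well above background in either water group.

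SNAREs and annexins completed the set. Of 9 syntaxin or SNARE probes, 1 was higher (11.1%, beside 14.2% of all probes), for the plasma membrane syntaxin At5g08080 (1.48). A_71_P115475, of the same description, differed by 0.69. Of 6 annexin probes, whose proteins bind membranes in the presence of calcium, 1 was higher and 1 lower (16.7% each, beside 14.2% and 13.9% of all probes). Maize annexin p35 was higher by 1.82. The chickpea annexin probe (A_71_P115143) was lower, with 15.15 and 14.87 in light-grown and 13.57 and 13.22 in etiolated leaves (-1.61, SE 0.25, adjusted p = 0.0032). Without light replicate 1, the chickpea annexin was no longer called. With normexp background correction, the calls of the lower Setaria actin, the higher CHUP1 and the At5g66470 probes were lost.

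The nitrate-treated channels of the same arrays gave a second reading of the light regime. There, 69 of the 224 members were called in either direction, as were 30.5% of all probes, with 58 of the members higher in etiolated leaves and 11 lower. Of the 68 members called in water, 50 were called in the same direction after nitrate, which is 50 of 69 called after nitrate, and 0 were called in the opposite direction. That is 73.5% of the members called in water, beside 78.7% of all probes called in water (4744 of 6030). The 2 readings come from the same hybridisations and are not independent. For the kinesins, 15 of the 18 called in water were called the same way after nitrate, for the traffic and GTPase members 15 of 26, or 83.3% and 57.7%.

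Probes that share a description often differed from each other. There were 43 descriptions with more than 1 probe, covering 110 members. In 4 of them, CHUP1, DH1, KIN15 and Setaria actin, 1 probe was called higher and another lower in etiolated leaves. A shared description may join different genes of a family, and a probe may also pick up a close relative, so a value belongs to its probe and cDNA and not to the named gene.

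**Figure D3:**
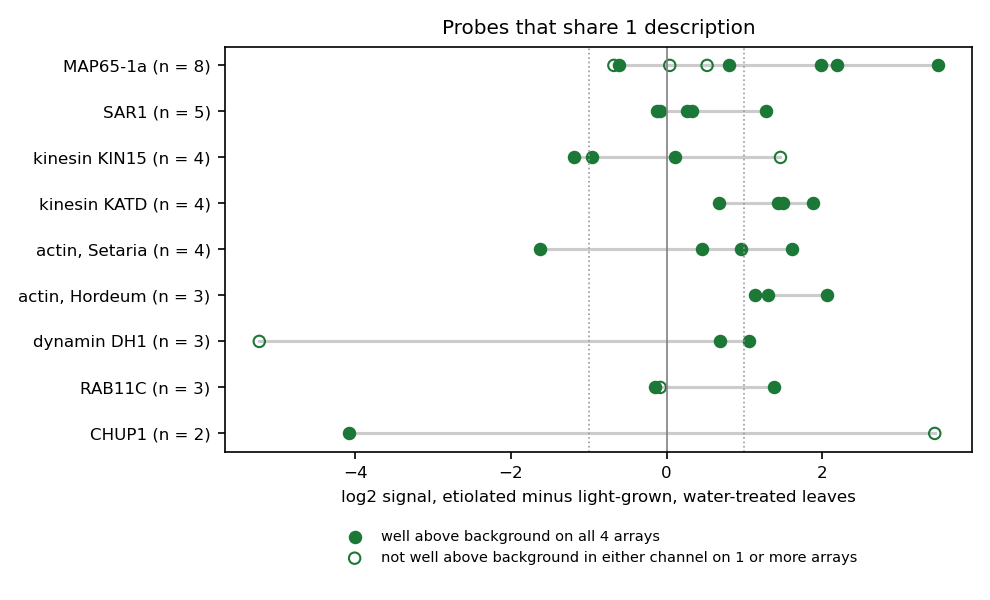
Difference in log2 signal between etiolated and light-grown water-treated leaves for probes that share 1 description, with 1 point per probe, filled where the probe passed the background test in 1 or both channels on all 4 arrays. CHUP1 spans -4.07 to 3.44 and Hordeum actin 1.13 to 2.06, the former with a fitted value that rests on light-grown signals below background.

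The response to nitrate within each light regime was small for most members. The log2 ratio of nitrate over water was fitted by limma on all 4 arrays, and a probe was called where it was at least 1 in size and its unadjusted p did not exceed 0.05. Both limits follow the study's definition of a responsive gene. In light, 2 members rose, where 2.28% of all probes did, and 1 fell, where 1.46% did. In dark, 1 member rose, where 1.81% of all probes did, and 1 fell, where 1.72% did. The median ratio of the members was 0.05 in light and 0.02 in dark, and 193 and 189 of them lay within 0.5 of 0. Small ratios were not particular to the members. Their median absolute ratio was 0.205 in light and 0.204 in dark, and that of all probes 0.208 and 0.218. With p alone, unadjusted, as the criterion (0.05), 27 members passed in light (16.1% of all probes) and 32 in dark (15.9%). After Benjamini-Hochberg adjustment over all probes, 0 members passed in either regime, whatever the size of the ratio, where 0.312% of all probes passed in light and 0.223% in dark.

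**Figure D4:**
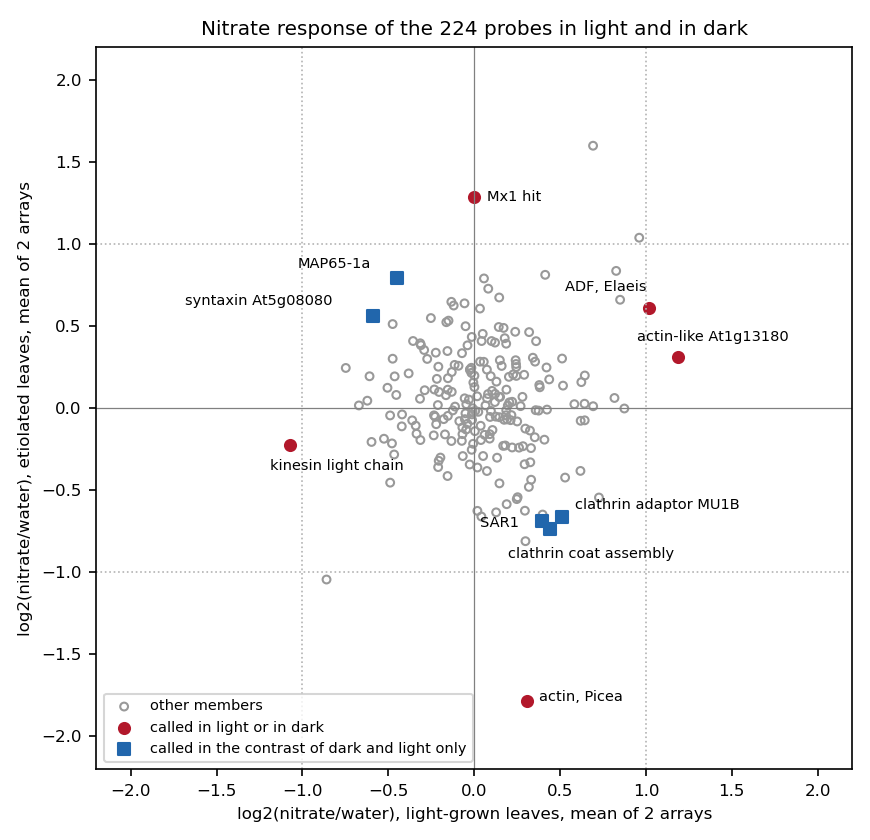
Mean log2(nitrate/water) of each of the 224 probes in light (horizontal) and dark (vertical), each from 2 arrays, with red circles for probes called in either regime and blue squares for those called only in the difference between them. Most points lie within 0.5 of 0 on both axes, and the Picea actin probe stands apart at -1.79 in dark.

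In light, the 2 members that rose both act on actin filaments. The ARP3-like probe (A_71_P104505) had ratios of 1.29 and 1.08 in light and 0.76 and -0.15 in dark. It rose by 1.19 in light (SE 0.26, 2.28-fold, limma adjusted p = 0.16), and its ratio in dark was 0.31. The Elaeis actin depolymerizing factor (A_71_P123524) had 1.26 and 0.77 in light and 0.78 and 0.44 in dark, above 0 on all 4 arrays. It rose by 1.02 in light (SE 0.19, adjusted p = 0.13), with 0.61 in dark. Its call in light was lost with the deposited normalized ratios (0.93), with normexp background correction (0.37) and without light replicate 1 (0.77), and the ARP3-like call was lost without light replicate 1 (1.08) and without moderation. Both probes were also among those higher in etiolated leaves after water, a comparison that shares the water-treated light-grown samples.

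The member that fell in light was a kinesin light chain, the cargo-binding part of a kinesin (At2g31240, A_71_P110477). Its ratios were -0.69 and -1.45 in light and -0.57 and 0.12 in dark. Its nitrate channel failed the background test on both light arrays, so the probe was at least 1.85-fold lower after nitrate in light (adjusted p = 0.20). It was no longer called without light replicate 2 (-0.69), without moderation or with normexp background correction (-0.23). The ratios of -0.69 and -0.23 are smaller decreases than that bound. The second kinesin light chain probe of the same description had a ratio of -0.48 in light. Across all 36 kinesins, this was the only call, and the median ratio was 0.09 in light and 0.12 in dark.

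In dark, the member that fell was the Picea rubens actin probe (A_71_P125607). Its ratios were 0.70 and -0.09 in light and -1.96 and -1.61 in dark. It fell by 1.79 in dark (SE 0.24, 3.45-fold, adjusted p = 0.099). The log2 signals were 10.62 and 10.64 in etiolated leaves given water and 8.66 and 9.02 in those given nitrate, against 7.99 to 8.69 in all 4 light-grown samples. After nitrate, etiolated and light-grown leaves differed by 0.24 in this probe (adjusted p = 0.46), in place of 2.33 after water. The ratio in dark and the difference after water share the water-treated etiolated samples. The other 10 actin probes had ratios in dark of -0.34 to 0.84, with none called.

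The member that rose in dark was a probe described by a bovine Mx1 GTPase, of the dynamin superfamily (A_71_P109438), named because it was the only rise. Its ratios were -0.03 and 0.04 in light and 1.16 and 1.42 in dark (mean 1.29). On at least 1 array neither of its channels passed the background test, so no fold is given.

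The difference between regimes was tested as the dark minus light contrast of the same fit. It was called in 7 members, 3 with the higher response in dark, where 2.98% of all probes were called so, and 4 with the higher response in light, where 3.54% were. With unadjusted p alone as the criterion, 32 members passed (15.7% of all probes), and after adjustment 0 members passed (0.0% of all probes). The split moved both ways with the processing. It was 4 and 2 with the log ratio of the scanner software in place of loess, 2 and 1 without moderation and 5 and 5 with median centring, and it was 3 and 6 with the deposited ratios, 1 and 3 with normexp background correction and 2 and 8 with dim probes left out. The called probes were the Picea actin probe and 6 from other roles.

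**Figure D5:**
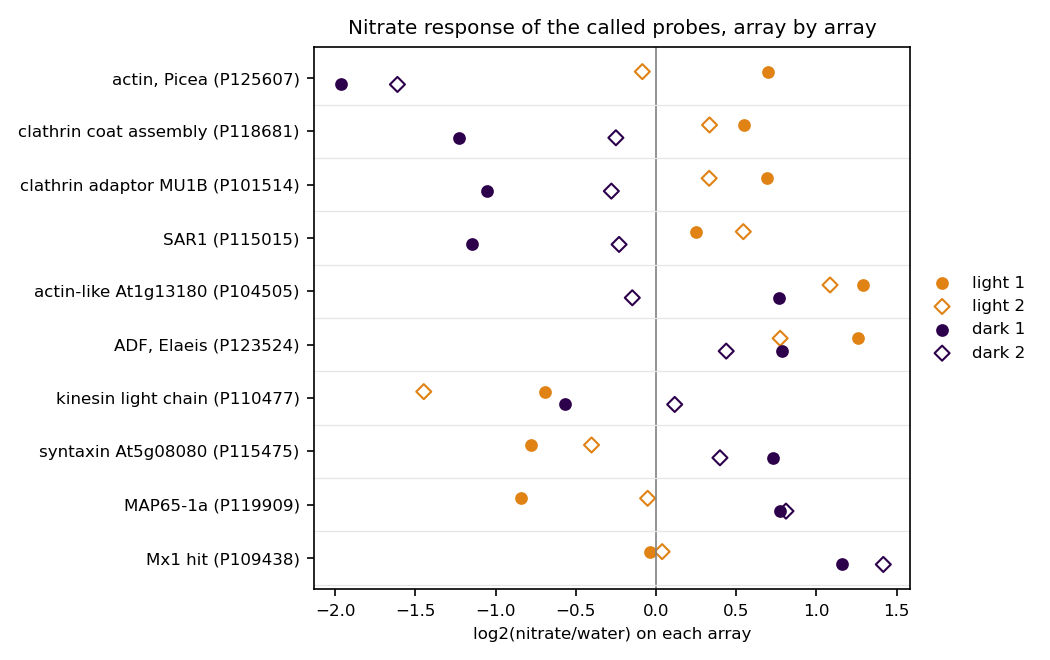
Log2(nitrate/water) on each of the 4 arrays for the members called in light, in dark or in the difference between them, with orange for light and purple for dark, filled circles for replicate 1 and open diamonds for replicate 2. In the SAR1 and clathrin adaptor probes the dark replicate 1 value lies at -1.05 to -1.23 and the dark replicate 2 value near -0.25.

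For the Picea actin probe the difference was -2.09 (SE 0.34, adjusted p = 0.19), and it lay between -1.69 and -2.48 under all alternatives run, with the call lost only by adjusted p. The next 3 probes act in vesicle budding, each above 0 on both light arrays and below 0 on both dark arrays. The AP-4 clathrin coat assembly probe (A_71_P118681) had 0.55 and 0.33 in light and -1.23 and -0.25 in dark, a difference of -1.18 (SE 0.38, adjusted p = 0.28). The AP-1 adaptor MU1B (A_71_P101514) had 0.69 and 0.33 against -1.05 and -0.28, a difference of -1.18 (SE 0.34, adjusted p = 0.26). SAR1 (A_71_P115015) had 0.25 and 0.54 against -1.15 and -0.23, a difference of -1.09 (SE 0.37, adjusted p = 0.30).

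These 3 calls depended on the processing and on which array was left out. All 3 were lost without moderation. The AP-4 and MU1B calls were lost with normexp background correction (-0.65 and -0.99), and the AP-4 and SAR1 calls with the scanner log ratio. Without dark replicate 2 the differences were larger, at -1.67, -1.56 and -1.54, and all 3 were called. Without dark replicate 1 the differences were -0.69, -0.79 and -0.63, and none was called. Nor were they called without light replicate 1, with differences down to -1.23, or without light replicate 2, with differences of -1.28, -1.36 and -0.94. Among all 5 SAR1 probes, the median ratio was -0.73 on dark replicate 1 and -0.20 on dark replicate 2, with 4 of 5 below 0 on each, against 0.06 and 0.18 on the light arrays. Over the clathrin, coatomer and SAR1 probes together, 15 of 25 were below 0 on each dark array, and 14 and 12 on the light arrays. Of all 21495 probes, 11065 and 10997 were below 0 on the dark arrays, and 11025 and 10792 on the light arrays. Both family tallies include the called probes themselves, and probes of a family are not replicates of a regime.

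The probes with the higher response in dark were a syntaxin, a microtubule bundler and the Mx1 probe. The plasma membrane syntaxin probe (At5g08080, A_71_P115475) had -0.78 and -0.40 in light and 0.73 and 0.40 in dark, a difference of 1.15 (SE 0.25, adjusted p = 0.22). Without dark replicate 1 or light replicate 1 it was 0.99 and 0.97, and it was not called. MAP65-1a (A_71_P119909) had -0.84 and -0.05 in light and 0.77 and 0.81 in dark, a difference of 1.24 (SE 0.32, adjusted p = 0.24). Its water signal failed the background test on both etiolated arrays, and with normexp background correction the difference was 0.28. It was also not called without light replicate 1 (0.84), dark replicate 1 (1.26) or dark replicate 2 (1.22). Over the 8 MAP65-1a probes the ratio was below 0 in 2 on dark replicate 1 and in 1 on dark replicate 2, against 4 and 5 on the light arrays. That tally includes the called probe. Of all 21495 probes, 11065 and 10997 were below 0 on the dark arrays, and 11025 and 10792 on the light arrays. The difference was 1.29 in the Mx1 probe, whose signals are described above.

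For 6 role groups without a probe among those with the strongest calls, the probe with the smallest unadjusted p in the contrast was taken as the example. The small GTPase probe (A_71_P119907) had ratios of -0.65 and -0.84 in light and 0.44 and 0.05 in dark, a difference of 0.99 (SE 0.23, adjusted p = 0.23), just short of the threshold. The barley ADP-ribosylation factor 1-like probe (A_71_P103106) had 1.06 and 0.69 in light and -0.09 and 0.08 in dark, a difference of -0.88 (SE 0.22, adjusted p = 0.24). The coatomer beta prime probe (A_71_P115783) had 0.45 and 0.21 against -0.67 and -0.20 (-0.77, adjusted p = 0.28). The prenylated Rab receptor probe (A_71_P115027) had 0.19 and 0.45 against -0.86 and -0.10 (-0.80, adjusted p = 0.35). The myosin probe (A_71_P102072) had -0.13 and 0.01 against 0.85 and 0.42 (0.69, adjusted p = 0.29), and the profilin A probe (A_71_P123435), which was not above background, gave 0.38 (adjusted p = 0.73). None of these reached the size set for a call.

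Further cytoskeleton and traffic probes outside the chosen words, such as formins, villins, exocyst, vacuolar sorting and Sec proteins, numbered 63. In etiolated against light-grown leaves given water, 7 of them were higher (11.1%, beside 14.2% of all probes). A further 3 were lower (4.76%, beside 13.9%), and the median of the 63 was 0.28. With nitrate, 1 rose in light (1.59%, beside 2.28% of all probes) and 1 in dark (1.59%, beside 1.81%). None fell, beside 1.46% and 1.72% of all probes, and the medians were -0.02 and 0.07.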

How the data were processed

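Leaf RNA was measured on 4 2-colour Agilent arrays, 2 in light and 2 in dark. The authors deposited scanner output per spot, with intensity values of each channel after background subtraction and dye balancing by Feature Extraction (9.5.3.1 per the file headers), a log10 ratio, flags in which other codes mark outliers and spots well above background, and a separate deposited table of normalized ratio values. The labels do not say which channel held nitrate, and channel 2 was read as nitrate, since channel 1 over channel 2 correlated with the study's signed values at -0.998 over 23 probes in light and -0.988 over 16 in dark. The direction is therefore not independent of the paper.

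From the processed intensities, log2 ratios were normalized by loess (span 0.3, 4 iterations) without control spots and outlier spots (7 to 60 per array), averaged over the 2 spots of a probe and fitted with limma 3.58.1 in R 4.3.3. The separate-channel fit used Aquantile and a within-spot correlation of -0.0461 (statmod 1.5.0). Each SE is limma's moderated SE. A bound ("at least") sets the bright group's mean against, per array, the higher of the lowest signal among probes well above background and the dim probe's own. Fits were tested on simulated data.

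The members and lists were chosen with earlier results of these data known. Probes named were those called by nitrate in either regime or in the contrast and well above background, up to 10 each way between light regimes, and 1 per role group left without a name. A family of GTP-binding members is counted in the totals and otherwise not reported here. Others are all called members of a group, or complete a shared description, and were chosen after their values were seen. With biological replicates named but not described, p-values measure the spread between these samples. Alternatives were normexp (offset 50), median centring, scanner log ratios, deposited ratios, other filters, a dye term, no moderation, each condition alone, a threshold of 0.95, adjusted p, other channel scalings and leaving out each array. Sequences and gene positions were not used here.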

Additional observations from a re-analysis of the deposited data

Results flagged for a closer look

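There were 7 members whose nitrate response differed between dark and light past the thresholds of the contrast, at an unadjusted p, and none after adjustment. The dark minus light difference in log2(nitrate/water) was -2.09 for the Picea actin probe (A_71_P125607), -1.18 for the AP-4 coat assembly probe (A_71_P118681), -1.18 for the AP-1 adaptor MU1B (A_71_P101514) and -1.09 for SAR1 (A_71_P115015). It was 1.15 for the syntaxin At5g08080 (A_71_P115475), 1.24 for MAP65-1a (A_71_P119909) and 1.29 for the Mx1 probe (A_71_P109438). The adjusted p-values of limma ran from 0.18 to 0.30. With 2 arrays per regime, no group was large enough to test a single array as standing apart.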

How the results depend on the processing

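Counts of members called by nitrate depended on the setting. In light, 3 members were called, 1 with normexp or without moderation, 0 by adjusted p and 3 to 10 with an array left out (7 without light replicate 1, 10 without light replicate 2). In dark, 2 were called, 4 with each condition alone, 0 by adjusted p and 4 to 10 with an array left out (7 without dark replicate 1, 10 without dark replicate 2, 4 without either light array). For the contrast, 7 were called, 4 with normexp, 3 without moderation, 0 by adjusted p and 4 to 17 with an array left out (12 without light replicate 2, 4 without dark replicate 1, 17 without dark replicate 2). A lone array was assumed to vary like the other regime. With a replicate block (dye term), which the labels' missing replicate numbers do not pair, 3, 3 and 7 were called. The deposited ratios and median centring each gave 1 higher and 2 lower in dark, and the deposited ratios 1 and 1 in light. Between light regimes, 68 were called (56 higher, 12 lower), with 63 to 67, 50 to 56 and 11 to 16 with an array left out, and the lower count was 7 with normexp. The contrast's 3 higher and 4 lower became 2 and 8 with dim probes left out, 5 and 5 with median centring and 3 and 6 with the deposited ratios, and the dye term gave 1 higher and 2 lower in dark. No other setting moved a total by more than 1.5 times. Values of named probes kept their direction and side of the threshold in 394 cases, lost the call in 50, gained it in 8 and reversed in none where the probe was called. The nitrate-treated channels, an alternative chosen after seeing the data, gave 69 calls in place of 68.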
